A study of Mus musculus with 10 samples.

Results

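The cytosolic ribosomal protein genes are those whose products, with the ribosomal RNAs, build the small and large subunits of the cytoplasmic ribosome. Members were taken by gene symbol: Rps or Rpl followed by a number and at most 1 letter of a, l or x, together with Rpsa, Rplp0, Rplp1, Rplp2, Rpl22l1 and Rps27l, without pseudogene symbols. This rule found 83 of the 48795 genes listed, of which 32 belong to the small subunit, 48 to the large subunit and 3 to the stalk, the flexible arm of the large subunit. RNA-seq had been carried out on 10 libraries of polyA RNA from neural stem cell cultures of the adult mouse brain subependymal zone (SEZ), from mice 10 weeks old. The wild-type (WT) neurospheres (3 libraries) were proliferating cultures at 3 DIV (days in vitro) with 20 ng/ml EGF and 10 ng/ml FGF. The sample labels and the study's RNA-seq methods both give this age, and 1 sentence of its results text gives 5 days. The WT cultures at 2 + 1 DIV (3 libraries) had been attached to Matrigel for 2 days with FGF and then kept for 24 h without mitogens in 2% fetal bovine serum. Both stages were also present in libraries labelled p27KO, with 2 libraries each, and the study's methods describe the p27KO line as Cdkn1b mutants on a C57BL/6 J background, without naming the strain of the WT animals used for sequencing. The libraries are called biological replicates, but whether each came from a separate animal is not stated, so that p-values measure only the spread between these libraries. The stages differed in mitogens, serum and attachment at once, and their parts in any change cannot be told apart.

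Most ribosomal protein messages carry a tract of pyrimidines at their very start, the 5′ terminal oligopyrimidine (TOP) motif, through which the mTORC1 kinase and LARP1 control their translation and stability. Each ribosome holds 1 copy of nearly every ribosomal protein, so that a growing cell makes them in large and balanced amounts. Neural stem cells of the SEZ make much of this RNA when they are activated from quiescence, and the counts below measure RNA and not protein synthesis.

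The libraries held between 19190068 and 25291674 estimated counts, with totals of 19190068, 25069860 and 21687332 in WT neurospheres and 19649261, 24128072 and 25291674 in WT cells at 2 + 1 DIV. The libraries labelled p27KO held 24205236 and 20332078 counts in neurospheres and 25223929 and 22237950 at 2 + 1 DIV. Cdkn1b, the gene that encodes p27, was counted at 103, 105 and 112 CPM (counts scaled to 1e+06 per library) in WT neurospheres and at 114 and 90.7 CPM in neurospheres labelled p27KO. At 2 + 1 DIV its level was 206, 205 and 209 CPM in WT and 140.2 and 137 CPM under the p27KO label. No library labelled p27KO thus lacked counts of this gene; at 2 + 1 DIV both lay below all 3 WT libraries, a log2 difference of -0.56 ± 0.10 (SE), adjusted p = 0.0202, and in neurospheres the labels overlapped. The difference did not pass without p27KO-labelled library 1 (-0.58, adjusted p = 0.166) or 2 (-0.53, adjusted p = 0.227) at 2 + 1 DIV, or without WT library 2 (-0.55, adjusted p = 0.0571) or 3 (-0.56, adjusted p = 0.0516). These gene-level counts do not show which exons the reads came from. The descriptions of those samples call them WT cells while their titles and genotype fields say p27KO, so that they are called libraries labelled p27KO throughout. They also differed from the WT libraries in sex-linked genes. Xist, the X-inactivation RNA, was at 1.93, 1.16 and 1.38 CPM in WT neurospheres and at 2258 and 2316 CPM in neurospheres labelled p27KO, and 4 Y-linked genes summed to 217, 189 and 202 CPM and to 0.206 and 0.148 CPM. The same split held at 2 + 1 DIV, with Xist at 2.54, 2.57 and 2.57 CPM in WT and 3595 and 3492 CPM under the p27KO label. Sex and the genotype label coincide in these libraries and cannot be told apart.

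The cells were checked by marker lists. All 7 markers of neural stem and progenitor cells were detected in every library, and they summed to 7386, 8199 and 7573 CPM in WT neurospheres, with Vim as the most abundant, and to 5284, 5462 and 6614 CPM in WT cells at 2 + 1 DIV, with Fabp7 as the most abundant. Under the p27KO label they summed to 7543 and 7245 CPM in neurospheres and 6691 and 6661 CPM at 2 + 1 DIV. The 4 cycling markers, led by Mki67, summed to 1843, 1814 and 1991 CPM in WT neurospheres and 249, 131 and 218 CPM in WT at 2 + 1 DIV, and to 2094 and 1942 CPM and then 719 and 618 CPM under the p27KO label. At 2 + 1 DIV Mki67 was higher under the p27KO label than in WT, by a log2 difference of 1.82, adjusted p = 0.000929. The 6 astrocytic markers, led by Slc1a2, summed to 623, 710.0 and 472 CPM in WT neurospheres and 1952, 2392 and 1768 CPM at 2 + 1 DIV, and to 655 and 616 CPM and then 2309 and 2115 CPM under the p27KO label. Microglial markers summed to at most 0.622 CPM and erythroid markers to at most 0.458 CPM in any library, with the microglial marker C1qa at 0 counts in all of them. The 5 endothelial markers, of which Cdh5 and Cldn5 were at 0 in every library, summed to 2.71, 2.27 and 2.90 CPM in WT neurospheres and 9.11, 10.2 and 4.67 CPM at 2 + 1 DIV, and to 2.44 and 3.00 CPM and then 5.63 and 10.8 CPM under the p27KO label. Kdr carried this sum, with 8.80 of 9.11 CPM in WT library 1 at 2 + 1 DIV, and rose by a log2 fold change of 1.90, adjusted p = 0.00105 in WT and 2.31, adjusted p = 0.00179 with the p27KO label, while Pecam1 stayed at or below 0.443 CPM. The values of Tek were negative, at -1.04, adjusted p = 0.0983 in WT (-0.66 without library 1 at 2 + 1 DIV) and -2.04, adjusted p = 0.0169 with the p27KO label. The latter did not pass without neurosphere library 2 (-1.72, adjusted p = 0.0832) or library 2 at 2 + 1 DIV (-1.70, adjusted p = 0.107). The 7 mesenchymal markers summed to at most 3.44 CPM in neurospheres of both labels and to 30.2 to 99.2 CPM at 2 + 1 DIV, with the smooth-muscle actin gene Acta2 as the most abundant. Of the 6 neuronal markers Map2 was the most abundant, at 1218 to 2067 CPM of sums of 1228 to 2132 CPM, with Stmn2 at 0 in 3 libraries. Stmn2 was not tested, and the log2 fold changes of Map2, Rbfox3 and Syt1 did not pass under either label. They were 0.12, 0.42 and -0.41 in WT and 0.17, -0.34 and -0.49 with the p27KO label, in that order. In the same list Dcx, a marker of neuroblasts, rose in WT, on the log2 scale by 4.52, adjusted p = 0.00421, from 0.834, 0.279 and 3.18 CPM to 55.9, 14.5 and 35.1 CPM. It rose by 4.25, adjusted p = 0.016 with the p27KO label, a call lost without neurosphere library 2 (3.48, adjusted p = 0.0535) or library 2 at 2 + 1 DIV (3.63, adjusted p = 0.0595). Tubb3 rose by 1.19, adjusted p = 0.0182 in WT, a call lost without neurosphere library 2 (1.02, adjusted p = 0.0633) or library 1 at 2 + 1 DIV (0.87, adjusted p = 0.0624), and the change with the p27KO label, 1.16, adjusted p = 0.0557, did not pass. That change passed with DESeq2 (1.20, adjusted p = 0.0264), library totals (1.26, adjusted p = 0.0436), the study's filter (1.24, adjusted p = 0.0411) and the crossed replicate pairs chosen after the data were seen (1.15, adjusted p = 0.00186). It also passed without p27KO-labelled library 1 of either stage (1.68, adjusted p = 0.0442 in neurospheres, 1.60, adjusted p = 0.0247 at 2 + 1 DIV) or WT library 1 at 2 + 1 DIV (1.17, adjusted p = 0.0345), and was 0.55, adjusted p = 0.396 without p27KO-labelled library 2 at 2 + 1 DIV. The 7 oligodendroglial markers were led by Cnp and summed to 70.9 to 242.5 CPM. The stem and progenitor, cycling, astrocytic, endothelial and mesenchymal sums did not overlap between the stages under either label, and the part of these cell types and of neuroblasts in the changes described here was not tested.

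The 83 members held 2.38, 2.23 and 2.24% of the counts in the WT neurosphere libraries and 1.24, 1.05 and 1.32% in WT libraries at 2 + 1 DIV. In the libraries labelled p27KO they held 2.44 and 2.10% in neurospheres and 1.16 and 1.15% at 2 + 1 DIV. Every library at 2 + 1 DIV lay below every neurosphere library, and the labels overlapped within each stage. The counting interval of each share (Wilson, 95%) was at most 0.00682 percentage points to either side and covers counting error alone. The means were 2.28 ± 0.0865% (SD, n = 3) and 1.20 ± 0.140% (SD, n = 3) in WT, a ratio of 0.526, and 2.27 ± 0.240% (SD, n = 2) and 1.15 ± 0.00424% (SD, n = 2) with the p27KO label, a ratio of 0.509. The small subunit went from a mean share of 0.857 ± 0.0310% to 0.438 ± 0.0544% in WT, the large subunit from 1.30 ± 0.0429% to 0.700 ± 0.0765% and the stalk from 0.126 ± 0.0127% to 0.0647 ± 0.0109% (SD, n = 3 each). For comparison, the 79 genes of the mitochondrial ribosome held 0.289 ± 0.00691% and 0.202 ± 0.00864% in WT, a ratio of 0.700. Genes of the mitochondrial genome held 4.49, 4.48 and 3.94% in WT neurospheres and 5.44, 6.82 and 5.96% at 2 + 1 DIV, and 4.22 and 5.43% and 6.41 and 5.86% with the p27KO label, so that their share was higher at 2 + 1 DIV without overlap under either label. Whether this reflects the cells or the quality of the RNA was not tested. These shares are descriptions without a test.

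**Figure D1:**
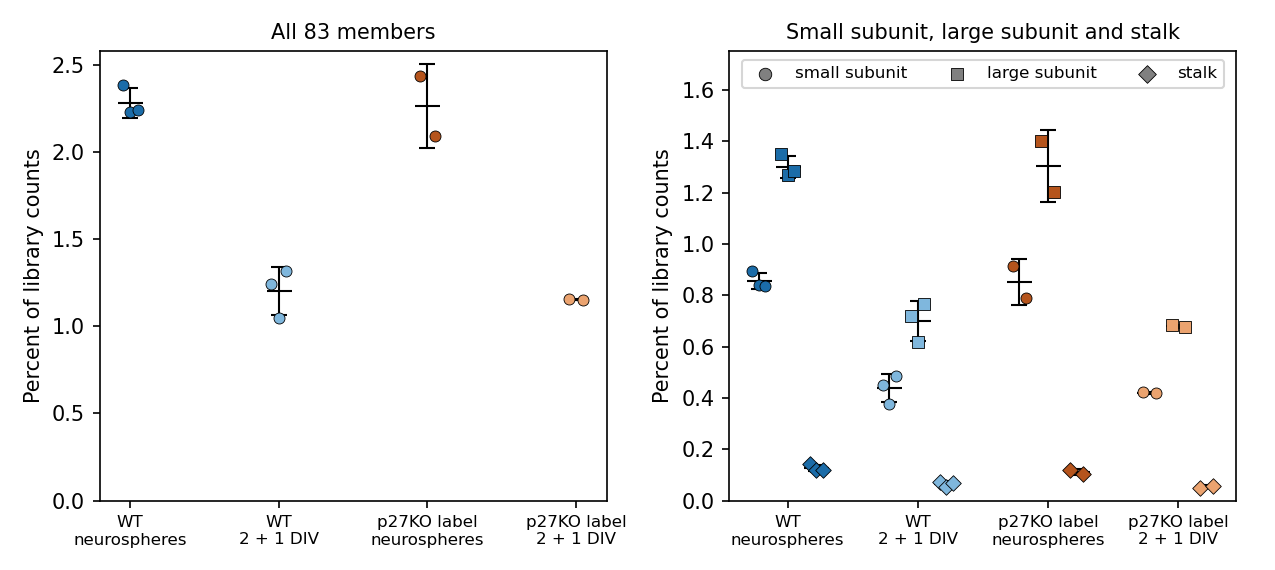
Percent of the counts of each library held by the 83 ribosomal protein genes (left) and by their small subunit, large subunit and stalk genes (right) in each of the 4 groups; points are libraries and bars are the mean with SD. The libraries at 2 + 1 DIV hold 1.05% to 1.32% and the neurosphere libraries 2.10% to 2.44%.

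Of the 83 members, 80 had at least 10 counts in 2 or more libraries and were tested with edgeR's quasi-likelihood test among 16797 genes, and p-values were adjusted over all of these (Benjamini-Hochberg), with a threshold of 0.05. The other 3, Rpl3l, Rpl10l and Rpl39l, were nearly or wholly without counts. In WT, 75 of the 80 members fell from neurospheres to 2 + 1 DIV and 0 rose, where 31.2% of all genes tested fell and 30.8% rose. DESeq2 also called 0 members higher, against 5169 of all genes tested, and 0 members had a positive change at an unadjusted p under 0.05, against 5537. The median log2 fold change of the tested members was -1.02 (fold 0.492), with quartiles of -1.20 and -0.87, while the median of all genes tested was 0.03 with quartiles of -0.61 and 0.81. For 76 of the 80 members all 3 libraries at 2 + 1 DIV lay below all 3 neurosphere libraries in TMM-scaled CPM, against 33.9% of all genes tested. In bulk RNA, fewer cells of a type and less RNA per cell cannot be told apart.

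In the libraries labelled p27KO, 75 of the 80 members fell as well and 0 rose, where 27.3% of all genes tested fell and 24.3% rose. DESeq2 called 0 members higher there, against 4167 of all genes tested, and 0 were higher at an unadjusted p under 0.05, against 4671. The median was -1.11 (fold 0.465), against -0.01 over all genes tested. Both libraries at 2 + 1 DIV lay below both neurosphere libraries for 78 members, against 39.0% of all genes tested. WT and the p27KO label share no library, and across the 77 members whose mean reached 10 CPM their changes had a Pearson r of 0.89, a description across genes, which are not independent replicates. Over the 9758 tested genes at such a level it was 0.96. The SD of the log2 fold changes was 0.37 in WT and 0.46 with the p27KO label over the 80 tested members, against 1.48 and 1.48 over all genes tested. Many of all genes tested had means below 10 CPM, so that these SDs are not matched for level.

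**Figure D2:**
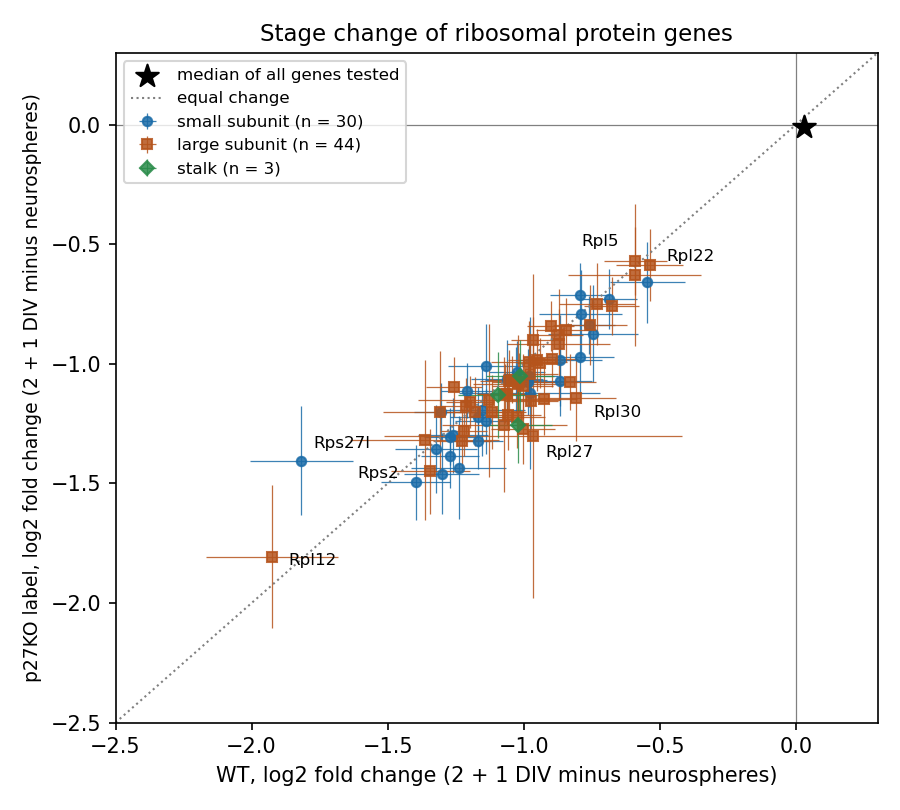
Log2 fold change from neurospheres to 2 + 1 DIV in WT (x axis) and with the p27KO label (y axis) for the 77 tested ribosomal protein genes whose mean reached 10 CPM; bars are standard errors, colours and shapes mark the subunit, and the star is the median of all 16797 genes tested. All 77 points lie below 0 on both axes, from -1.93 for Rpl12 to -0.54 for Rpl22 in WT.

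Among the 32 small subunit genes, 30 fell in WT and 30 with the p27KO label, with medians of -1.10 and -1.10. Rps6 (ENSMUSG00000028495, chr4:86854660-86857412 in GRCm38) encodes the protein that S6 kinases phosphorylate downstream of mTORC1. Its level was 233, 279 and 263 CPM in WT neurospheres and 117, 98.7 and 132 CPM at 2 + 1 DIV. In the libraries labelled p27KO it was 319.7 and 244 CPM and 119 and 127 CPM, so that the stages did not overlap under either label. The log2 fold change was -1.26 ± 0.13 (SE), adjusted p = 1.52e-05 in WT and -1.30 ± 0.16 (SE), adjusted p = 9.05e-05 with the p27KO label. Rps19, the first gene found mutated in Diamond-Blackfan anemia, went from 223, 201 and 190.2 CPM to 93.1, 78.8 and 102 CPM in WT and from 214 and 208 CPM to 91.4 and 91.8 CPM with the p27KO label. Its changes were -1.27 ± 0.10 (SE), adjusted p = 2.17e-06 and -1.31 ± 0.12 (SE), adjusted p = 1.59e-05.

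Rpsa encodes a protein of the small subunit that is also known as a laminin receptor. It was counted at 897, 687 and 658 CPM in WT neurospheres and 373, 274 and 331 CPM at 2 + 1 DIV, and at 712 and 806 CPM and 297 and 296 CPM with the p27KO label. Every library at 2 + 1 DIV lay below every neurosphere library, with changes of -1.30 ± 0.14 (SE) and -1.46 ± 0.17 (SE). Rps27a, which encodes ubiquitin fused to a ribosomal protein, changed by -1.32 ± 0.15 (SE), adjusted p = 3.45e-05 in WT, from 164 ± 5.84 CPM to 70.5 ± 16.5 CPM (SD, n = 3 each). Rps18 went from 323 ± 18.3 CPM to 154 ± 18.4 CPM (SD, n = 3 each), a change of -1.17 ± 0.09 (SE), adjusted p = 3.18e-06. Rps2, in the entry region of the message channel, was among the members that changed most. Its level was 837, 729 and 726 CPM in WT neurospheres and 362, 244 and 331 CPM at 2 + 1 DIV, and 706 and 708 CPM and 271 and 267 CPM with the p27KO label. The changes were -1.40 ± 0.13 (SE), adjusted p = 6.93e-06 and -1.50 ± 0.16 (SE), adjusted p = 3.54e-05. At the other end, Rps14 changed by -0.55 ± 0.14 (SE), adjusted p = 0.00573 in WT, from 246 ± 7.91 CPM to 182 ± 30.4 CPM (SD, n = 3 each). With the replicate block and a correction for GC content and length, its WT change was -0.24, adjusted p = 0.0574.

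Of the 48 large subunit genes, 45 were tested, and 42 fell in WT and 42 with the p27KO label, with medians of -1.004 and -1.10. Rpl12, which forms the base of the stalk, had the most negative change of all called members in WT. It was a gene of low count for this family, at 21.2, 21.4 and 28.8 CPM in WT neurospheres and 8.91, 4.06 and 7.35 CPM at 2 + 1 DIV. Under the p27KO label it was at 19.3 and 18.6 CPM and 5.47 and 6.16 CPM. The changes were -1.93 ± 0.24 (SE), adjusted p = 7.56e-05 and -1.81 ± 0.30 (SE), adjusted p = 0.000697. Exons of Rpl12 overlap those of Lrsam1 on the opposite strand and of the small RNA gene Snora65 on the same strand, and whether the counting used strand is not given in the sources used here. The same limit holds for other members, as exons of 38 members overlap another gene and those of 19 a gene on the opposite strand. Among members named here these are also Rps2, Rps18, Rps27a, Rpl5, Rpl22l1, Rpl23a, Rpl30 and Rpl35, with Snhg9, Vps52, Clhc1, Fam69a, Gm33051, Tlcd1, D730044K07Rik, and Arpc5l and Wdr38 in that order.

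Rpl5 and Rpl11 bind the 5S ribosomal RNA and, outside the ribosome, the p53 regulator Mdm2. Rpl5 was at 102, 94.1 and 94.99 CPM in WT neurospheres and 72.2, 61.8 and 74.1 CPM at 2 + 1 DIV, among the smallest changes of the family, -0.59 ± 0.12 (SE), adjusted p = 0.00139. With the p27KO label it was at 101 and 72.5 CPM and 63.5 and 62.1 CPM, -0.57 ± 0.14 (SE), adjusted p = 0.00735. Without neurosphere library 1 of that label the value was -0.32, adjusted p = 0.0507. Rpl11 was at 269.6, 243 and 235 CPM and 147, 124 and 161 CPM in WT and at 236 and 239 CPM and 133 and 126 CPM with the p27KO label. Its stages did not overlap, and it changed by -0.90 ± 0.10 (SE), adjusted p = 2.32e-05 and -0.98 ± 0.12 (SE), adjusted p = 9.4e-05.

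Rpl13a, known also as a silencer of translation once released from the ribosome, went from 717 ± 31.5 CPM to 340.5 ± 56.7 CPM in WT (SD, n = 3 each), -1.18 ± 0.12 (SE), adjusted p = 1.3e-05. Rpl41, which encodes the smallest of these proteins, went from 577, 480.3 and 464 CPM to 262, 232 and 285 CPM in WT and from 497 and 478 CPM to 236 and 244 CPM with the p27KO label. The changes were -1.07 ± 0.10 (SE), adjusted p = 8.62e-06 and -1.12 ± 0.12 (SE), adjusted p = 4.85e-05. Scaled to transcript length, the highest mean levels over the 10 libraries were those of Rpl23a (950.2 CPM per kilobase), Rpl41 (690.4 CPM per kilobase) and Rpl19 (561 CPM per kilobase). The lowest, among members whose mean reached 10 CPM, were those of Rpl12 (11.4 CPM per kilobase), Rps20 (31.9 CPM per kilobase) and Rps15a (35.2 CPM per kilobase). For Rps20 and Rps15a the annotated principal transcripts (APPRIS) were taken at 3706 and 5130 bases, far above the median of 751 bases for the tested members, so that their values per kilobase depend on the transcript chosen. Rpl23a changed by -1.21 ± 0.10 (SE) and Rpl19 by -1.02 ± 0.10 (SE) in WT, and Rps20 and Rps15a by -1.06 ± 0.13 (SE) and -0.79 ± 0.15 (SE). Rps15a, under the p27KO label, changed by -0.79 ± 0.19 (SE), adjusted p = 0.00528, and by -0.50, adjusted p = 0.0456 without neurosphere library 1.

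The stalk recruits elongation and release factors through Rplp0, which anchors dimers of Rplp1 and Rplp2. All 3 genes fell under both labels. Rplp0 was at 865, 763 and 753 CPM in WT neurospheres and 468, 322 and 412 CPM at 2 + 1 DIV, -1.09 ± 0.15 (SE), adjusted p = 0.000106. Under the p27KO label it was at 739 and 589.9 CPM and 286 and 366 CPM, -1.13 ± 0.18 (SE), adjusted p = 0.000518. Rplp1 went from 319 ± 54.99 CPM to 169 ± 22.6 CPM and Rplp2 from 146 ± 10.2 CPM to 77.7 ± 13.99 CPM in WT (SD, n = 3 each). Their changes were -1.02 ± 0.13 (SE) and -1.01 ± 0.12 (SE) in WT, and -1.26 ± 0.16 (SE) and -1.05 ± 0.15 (SE) with the p27KO label. With the replicate block and the correction for GC content and length, Rplp1 and Rplp2 changed by -0.67 and -0.67 in WT.

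Several ribosomal protein genes have a paralogue. Rps27l, a target of p53, changed more than its paralogue Rps27, a difference that was not tested. Rps27l (ENSMUSG00000036781, chr9:66946086-66949516 in GRCm38) was at 110.4, 116 and 120.3 CPM in WT neurospheres and 26.8, 35.8 and 43.1 CPM at 2 + 1 DIV. Under the p27KO label it was at 166 and 108 CPM and 58.4 and 52.8 CPM. The changes were -1.82 ± 0.19 (SE), adjusted p = 2.33e-05 and -1.40 ± 0.23 (SE), adjusted p = 0.000674. Rps27 was at 76.8, 93.3 and 77.9 CPM and 55.1, 43.6 and 60.6 CPM in WT, -0.75 ± 0.17 (SE), adjusted p = 0.00296. It was at 89.7 and 76.5 CPM and 58.2 and 38.9 CPM with the p27KO label, -0.87 ± 0.20 (SE), adjusted p = 0.00514. With the replicate block and the correction for GC content and length, Rps27 was at -0.38, adjusted p = 0.0615 in WT. Per kilobase of transcript, Rps27l and Rps27 had means of 232 and 239.6 CPM in WT neurospheres and of 70.6 and 154 CPM at 2 + 1 DIV.

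Rpl22 had the least negative change among the called members in WT, and its paralogue Rpl22l1 was among the 4 most negative of them. Rpl22 was at 228, 229.9 and 249.5 CPM in WT neurospheres and 179.8, 149.7 and 195 CPM at 2 + 1 DIV, -0.54 ± 0.12 (SE), adjusted p = 0.00339. With the p27KO label it was at 272 and 198 CPM and 166 and 169 CPM, -0.59 ± 0.15 (SE), adjusted p = 0.00826, and -0.35, adjusted p = 0.0682 without neurosphere library 1. Rpl22l1 was at 56.02, 68.01 and 75.99 CPM and 29.8, 21.7 and 32.1 CPM in WT, -1.36 ± 0.27 (SE), adjusted p = 0.00216. With the p27KO label its neurosphere libraries differed from each other, at 99.2 and 43.9 CPM, and those at 2 + 1 DIV were at 31.7 and 29.8 CPM. That change was -1.32 ± 0.33 (SE), adjusted p = 0.00957, and it was -0.62, adjusted p = 0.0516 without neurosphere library 1 and -1.27, adjusted p = 0.0573 without library 2 at 2 + 1 DIV. In this pair the differences between a gene and its paralogue were not tested. The paralogues Rpl10l and Rpl39l had 0 counts in every library, and Rpl3l had at most 2 counts in any library. Their partners Rpl10, Rpl39 and Rpl3 were counted in every library, and Rpl3 went from 604 ± 35.3 CPM to 329 ± 56.8 CPM in WT (SD, n = 3 each), -0.98 ± 0.14 (SE), adjusted p = 0.000157. Rps4l, annotated as a transcribed pseudogene, was at 0.104, 0.997 and 0.922 CPM in WT neurospheres and at 0.0826 and 0 CPM in those labelled p27KO, and its changes of -0.86 ± 0.93 (SE) and 0.76 ± 1.97 (SE) did not pass the threshold. The WT change was -0.31 and -1.34 without library 1 or 3 at 2 + 1 DIV, and -1.33 and -0.46 without neurosphere library 1 or 2. With the p27KO label it was 3.99 and -0.0616 without neurosphere library 1 or 2.

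**Figure D3:**
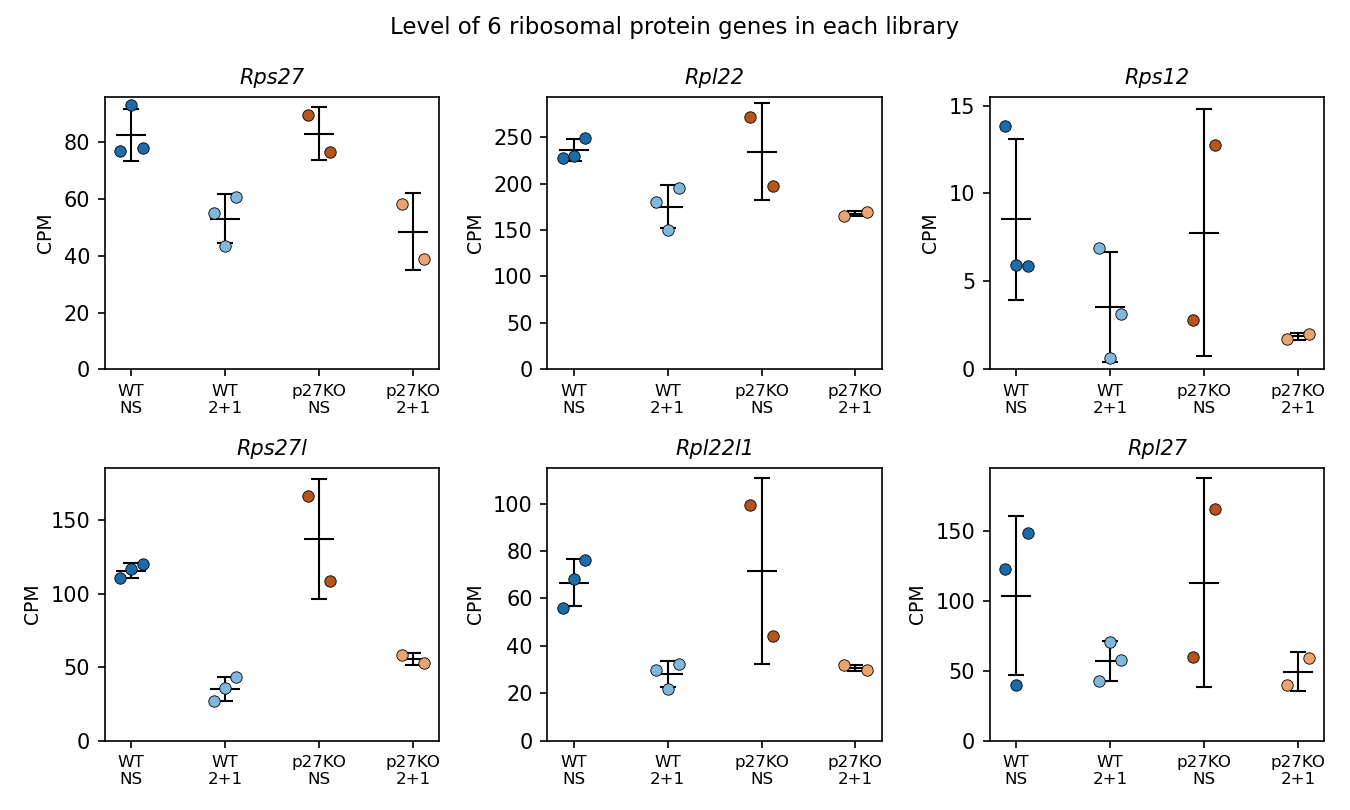
CPM of Rps27 and Rps27l, Rpl22 and Rpl22l1, and Rps12 and Rpl27 in each library, in neurospheres (NS) and at 2 + 1 DIV for WT and the p27KO label; points are libraries and bars are the mean with SD. Rps27l falls to 26.8 to 43.1 CPM in WT at 2 + 1 DIV, while Rps12 and Rpl27 vary between libraries of the same group.

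The 5 members that did not pass the threshold in WT were Rpl6l, Rps12, Rpl27, Rps4l and Rpl9, and the same 5 did not pass with the p27KO label. Rpl6l, annotated as a processed pseudogene, was at 0.834, 0.798 and 21.9 CPM in WT neurospheres, and its change was -3.53 ± 1.56 (SE), adjusted p = 0.0832. Without library 3 it was -0.28, adjusted p = 0.841, without library 1 -4.05, adjusted p = 0.0471 and without library 2 -4.06, adjusted p = 0.0456. Rps12 was at 13.8, 5.90 and 5.86 CPM in WT neurospheres and 6.87, 0.663 and 3.12 CPM at 2 + 1 DIV, and at 2.81 and 12.7 CPM and 1.74 and 2.02 CPM with the p27KO label. Its change was -1.39 ± 0.81 (SE), adjusted p = 0.171 in WT and -2.14 ± 1.03 (SE), adjusted p = 0.118 with the p27KO label, and the latter was -0.67, adjusted p = 0.639 without neurosphere library 2. In WT it ranged from -2.25 without library 1 at 2 + 1 DIV to -0.84 without neurosphere library 1, and was -1.64, adjusted p = 0.0475 with the replicate block. Rpl27 was at 123, 39.6 and 148 CPM and 42.2, 70.5 and 57.2 CPM in WT and at 59.95 and 166 CPM and 39.4 and 59.0 CPM with the p27KO label, with changes of -0.97 ± 0.55 (SE), adjusted p = 0.161 and -1.30 ± 0.68 (SE), adjusted p = 0.145. Without WT neurosphere library 2 or 3 its WT change was -1.34, adjusted p = 0.0295 or -0.61, adjusted p = 0.409, and without p27KO-labelled neurosphere library 2 the other was -0.38, adjusted p = 0.67. Rpl9, a large subunit protein, was at 171, 237 and 225 CPM and 160.1, 116 and 176 CPM in WT, -0.59 ± 0.24 (SE), adjusted p = 0.0593. With the replicate block and the correction for GC content and length it was at -0.30, adjusted p = 0.266. It passed the threshold without WT neurosphere library 1, at -0.71, adjusted p = 0.0433, and, with DESeq2, at -0.58, adjusted p = 0.0218. Leaving out p27KO-labelled neurosphere library 1 or 2 also gave a call in WT, at -0.58, adjusted p = 0.0158 and -0.59, adjusted p = 0.0138. In the libraries labelled p27KO, Rpl9 was at 282 and 145 CPM and 158 and 138 CPM, -0.63 ± 0.30 (SE), adjusted p = 0.107, with -0.08, adjusted p = 0.813 without neurosphere library 1 and -1.02, adjusted p = 0.00975 without library 2. Rpl6l was at -3.97 ± 2.23 (SE), adjusted p = 0.173 there, at -3.96, adjusted p = 0.0383 when WT neurosphere library 3 was left out of the fit, and at -3.92, adjusted p = 0.0202 with the libraries labelled p27KO fitted alone. Without p27KO-labelled library 2 at 2 + 1 DIV it was -9.10, adjusted p = 0.2.

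Ribosomal protein genes have many processed pseudogenes of nearly the same sequence, and the estimated counts could have been divided among them. The table holds 276 pseudogene entries named after a ribosomal protein gene, which took 0.334, 0.311 and 0.301% of the counts in WT neurospheres and 0.164, 0.141 and 0.171% at 2 + 1 DIV. For Rps12, 94.6% of the counts of the gene and its pseudogene entries together lay in the pseudogene entries, for Rpl10 80.4%, for Rpl9 34.6% and for Rpl27 28.3%. For 9 members this share was above 50%, and levels of these members, Rps6 among them at 55.4%, are uncertain. With the pseudogene entries added, Rps12 was at 130.1, 119 and 148 CPM in WT neurospheres and 70.1, 54.9 and 67.8 CPM at 2 + 1 DIV, -1.15 ± 0.12 (SE), adjusted p = 2.15e-05. Rpl27 and Rpl9 changed by -0.93 ± 0.20 (SE), adjusted p = 0.00264 and -0.74 ± 0.12 (SE), adjusted p = 0.000392 in WT on the same sums. In the libraries labelled p27KO the values were -1.23 ± 0.15 (SE), adjusted p = 9.81e-05 for Rps12, -1.45 ± 0.25 (SE), adjusted p = 0.000948 for Rpl27 and -0.79 ± 0.15 (SE), adjusted p = 0.0014 for Rpl9. With these sums 78 of the 80 members fell in WT and 78 with the p27KO label. Rps6 changed by -1.29 ± 0.08 (SE), adjusted p = 7.14e-07 in WT on the sums.

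The next comparison asked whether the genotype label changed the stage response of these genes. The interaction, the change with the p27KO label minus that in WT, passed the threshold for 0 of the 80 members with edgeR, where 0.280% of all genes tested passed. At an unadjusted p under 0.05 the count was 0, against 651 of all genes tested, and DESeq2 called 0 members and 166 genes in all. The median interaction of the members was -0.06 on the log2 scale, against 0.00 over all genes tested. The values of Rps12 and Rpl27 turned to 0.71 and 0.58 without p27KO-labelled neurosphere library 2. The 3 most positive values were those of Rps4l, Rps27l and Rpl14, at 1.62, 0.41 and 0.16, and the 4 most negative those of Rps12, Rpl6l, Rpl30 and Rpl27, at -0.76, -0.44, -0.34 and -0.33. With pseudogene entries added, Rps12 and Rpl27 were at -0.08 and -0.52, and with the replicate block Rps12 and Rpl6l were at -0.18 and -1.36. Rpl6l ranged from -5.57 without p27KO-labelled library 2 at 2 + 1 DIV to 0.60 without library 1 there. Without p27KO-labelled neurosphere library 1 the values of Rps12 and Rpl27 were -1.50 and -0.91, and those of Rps4l, Rps27l, Rpl14 and Rpl30 were 4.84, 0.73, 0.28 and -0.19, and without library 2 those of Rps4l, Rps27l and Rpl14 were 0.80, 0.14 and 0.04. Without WT library 1 at 2 + 1 DIV Rps4l, Rps27l and Rpl30 were at 1.08, 0.24 and -0.21, and Rpl14 at 0.10 without WT library 2 there. Rpl30 was at 225, 197 and 271 CPM and 169, 123 and 135 CPM in WT and at 272 and 218 CPM and 118 and 120.0 CPM with the p27KO label, and its interaction was -0.34 ± 0.23 (SE), adjusted p = 1.0. Rps27l had an interaction of 0.41 ± 0.29 (SE), adjusted p = 1.0. For Rps6 the interaction was -0.04 ± 0.20 (SE), with a 95% interval from -0.43 to 0.35, and a p that misses the threshold does not show that the responses were equal. Among all genes tested 47 were called, 0 without either p27KO-labelled library of either stage or any WT neurosphere library, and 86, 81 and 42 without WT library 1, 2 or 3 at 2 + 1 DIV.

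At 2 + 1 DIV, 0 of the 80 members differed between the libraries labelled p27KO and WT with edgeR, where 1.49% of all genes tested did. At an unadjusted p under 0.05 there were 3 members, against 2095 of the 16797 genes tested, with Rps27l higher and Rpl36 and Rpl34 lower, of which Rpl34 is named after its values were seen. The median was -0.07, against -0.02 over all genes tested. The most positive value was that of Rps27l, whose 2 libraries labelled p27KO lay above all 3 WT libraries at 2 + 1 DIV, with a log2 difference of 0.68 ± 0.20 (SE), adjusted p = 0.2. DESeq2 called Rps27l alone among the members, at 0.69, adjusted p = 0.0279, and 666 genes in all. Rpl7 and Rpl37a followed, at 0.28 ± 0.15 (SE) and 0.22 ± 0.15 (SE). Without WT library 2 at this stage Rpl37a was at 0.10, and without library 3 Rpl37a and Rpl7 were at 0.35 and 0.44. The most negative were Rps4l, Rpl6l, Rps12 and Rpl36, at -2.16, -1.85, -0.87 and -0.33. Rpl6l was at -0.82 without p27KO-labelled library 1 and -6.99 without library 2, and with the replicate block Rpl6l and Rps4l were at -0.55 and -1.37. Rps12 was at 0.0033 without WT library 1, -1.36 without WT library 2 and -0.08, adjusted p = 0.849 with its pseudogene entries added. Rpl36 was at 56.3, 46.05 and 59.1 CPM in WT and 43.5 and 40.9 CPM with the p27KO label at this stage, -0.33 ± 0.14 (SE), adjusted p = 0.354, and -0.10, adjusted p = 0.819 with the replicate block and the correction for GC content and length. In neurospheres 0 of the 80 members differed between the labels with edgeR, where 0.0536% of all genes tested did. DESeq2 called 0 members and 49 genes there, and 1 member, Rps4l, had an unadjusted p under 0.05, against 765 of all genes tested, in a comparison with a member median of 0.00.

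Because the labels coincide with sex, the 4 members on the X chromosome were examined on their own. Rps4x, whose human counterpart escapes X inactivation, was at 560.4, 599.8 and 602 CPM in WT neurospheres and 695 and 530.2 CPM in those labelled p27KO, and at 316, 271 and 342 CPM and 322 and 305 CPM at 2 + 1 DIV. The labels overlapped at both stages, with log2 differences of 0.08 ± 0.12 (SE) in neurospheres and 0.04 ± 0.12 (SE) at 2 + 1 DIV. For Rpl10, Rpl36a and Rpl39 the differences at 2 + 1 DIV were -0.04 ± 0.23 (SE), -0.11 ± 0.11 (SE) and 0.01 ± 0.21 (SE). All 4 fell with the stage, with log2 fold changes of -1.03, -1.31, -1.02 and -0.87 in WT for Rps4x, Rpl10, Rpl36a and Rpl39. Of the counts of Rpl10 and Rpl36a with their pseudogene entries, 80.4% and 63.7% lay in those entries, so that their levels are uncertain. With the entries added, Rpl10 and Rpl36a changed by -1.07 ± 0.10 (SE) and -1.11 ± 0.11 (SE) in WT. Rpl39, under the p27KO label, changed by -0.92 ± 0.23 (SE), adjusted p = 0.00833, but by -0.46, adjusted p = 0.0543 without neurosphere library 1 and by -0.86, adjusted p = 0.0538 without library 2 at 2 + 1 DIV.

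Genes that work with these proteins were read from lists, whose counts stand beside 31.2% of all genes tested that fell in WT and 27.3% with the p27KO label. The 6 listed ribosomal protein genes whose symbols the rule leaves out all fell under both labels, with medians of -0.999 in WT and -0.94 with the p27KO label. Rpl36al, a paralogue of Rpl36a, changed by -1.49 ± 0.09 (SE), adjusted p = 4.11e-07 in WT and Rack1, a scaffold on the small subunit, by -1.10 ± 0.10 (SE), adjusted p = 5.03e-06. Of the 59 pseudogene entries tested, 26 fell in WT and the others did not pass, with a median of -1.05, and 21 fell with the p27KO label. The entry with the most negative called change was Rpsa-ps9, at -2.40.

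All 7 genes listed as ribosomal protein chaperones fell in WT, with a median of -1.07, led by Grwd1, which escorts Rpl3, at -2.57 ± 0.13 (SE), adjusted p = 1.82e-07. Grwd1 went from 37.3, 34.4 and 35.3 CPM to 7.02, 5.26 and 7.08 CPM. Ltv1, a factor of small subunit assembly, changed by -1.72 ± 0.11 (SE), adjusted p = 8.48e-07. Of the 34 translation initiation factors, 30 fell in WT and the others did not pass, with a median of -0.63. Eif4a1, the helicase that unwinds message leaders, changed by -1.81 ± 0.12 (SE) and Eif2s1 by -1.57 ± 0.12 (SE). All 10 elongation and termination factors tested fell in WT, with a median of -1.03. The most abundant of them, Eef1a1, itself a TOP message, went from 9599, 9695 and 9019 CPM to 4356, 4192 and 4890.0 CPM, and Eif5a and Abce1 changed by -1.64 and -1.22. Among the initiation factors the X-linked Eif2s3x was higher with the p27KO label at both stages, by 0.68 ± 0.08 (SE) in neurospheres and 0.75 ± 0.08 (SE) at 2 + 1 DIV, and it was named after its values were seen. In neurospheres the call was lost without WT neurosphere library 2 (0.67, adjusted p = 0.125) or 3 (0.67, adjusted p = 0.14) or p27KO-labelled neurosphere library 1 (0.59, adjusted p = 0.114). It was also lost without p27KO-labelled library 1 or 2 (0.68, adjusted p = 0.0654 and 0.68, adjusted p = 0.0668) or WT library 3 at 2 + 1 DIV (0.68, adjusted p = 0.0515), and with the replicate block (0.68, adjusted p = 0.0772).

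Of 17 other TOP messages, 16 fell in WT with a median of -0.62, and all 8 noncoding snoRNA host genes with TOP starts fell with a median of -1.12. Npm1, a nucleolar chaperone, changed by -1.63 ± 0.11 (SE), and the host genes Snhg5 and Snhg6 by -1.64 ± 0.14 (SE) and -1.68 ± 0.41 (SE). The 79 mitochondrial ribosomal protein genes fell in 67 cases in WT and otherwise did not pass, with a median of -0.65, and Mrpl12 and Mrps18b had the most negative called values, -1.81 and -1.73. The genes of the mTORC1 pathway and of TOP regulation went both ways, with 5 higher and 9 lower of 19 in WT, where 30.8% of all genes tested rose and 31.2% fell, and a median of -0.20. Sesn3 and Sesn1, inhibitors of mTORC1, rose by 1.74 ± 0.08 (SE) and 1.29 ± 0.10 (SE). Eif4ebp1, a translation repressor that mTORC1 inactivates, was at 17.1, 18.5 and 15.03 CPM in WT neurospheres and 2.75, 4.48 and 3.56 CPM at 2 + 1 DIV, -2.33 ± 0.22 (SE), adjusted p = 1.04e-05. Larp1, which binds TOP messages, changed by -1.14 ± 0.08 (SE), adjusted p = 1.16e-06. With the p27KO label 7 of 7 chaperones, 29 of 34 initiation factors, 9 of 10 elongation and termination factors, 17 of 17 other TOP messages, 7 of 8 host genes and 65 of 79 mitochondrial ribosomal protein genes fell, and in the mTORC1 list 4 were higher and 8 lower, where 24.3% of all genes tested rose. The elongation and initiation lists share genes with the TOP list, and differences between lists were not tested.

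Transcript length and GC content were set beside the change. Across the 77 members whose mean reached 10 CPM, log2 transcript length and the WT change had a Pearson r of -0.02, and GC content and the change -0.06, descriptions over genes from the same libraries. Over the 9758 tested genes at such a level, the r for length was 0.16. The tested members were short, with a median transcript of 751 bases against 2614 over all genes tested. When each library was corrected for trends on length and GC content, together with the replicate block, 72 members still fell in WT and 72 with the p27KO label, and the medians were -0.76 and -0.81. Among the named members, those whose change became smaller by over 1.5 times were, in WT, Rps14 (-0.24), Rps27 (-0.38), Rplp1 (-0.67), Rplp2 (-0.67), Rpl9 (-0.30), Rpl27 (-0.51), Rpl30 (-0.49), Rpl36 (-0.53), Rpl37a (-0.45) and Rpl39 (-0.56). With the p27KO label they were Rps14 (-0.31), Rps19 (-0.82), Rps27 (-0.55), Rplp1 (-0.79), Rplp2 (-0.63), Rpl9 (-0.29), Rpl19 (-0.70), Rpl27 (-0.81), Rpl36 (-0.61), Rpl37a (-0.56), Rpl39 (-0.59) and Rpl41 (-0.71), while Rps4l became larger, at 1.25. Of these, Rps14 and Rps27 no longer passed in WT, at adjusted p = 0.0574 and 0.0615, nor Rps14 with the p27KO label, at 0.058. Without the correction Rps14 changed by -0.66 ± 0.17 (SE), adjusted p = 0.008 with that label, and it did not pass without neurosphere library 1, at -0.40, adjusted p = 0.0697, or without library 2 at 2 + 1 DIV, at -0.62, adjusted p = 0.0513.

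The starts of the genes were read from RefSeq promoter entries (GRCm38.p6), which matched 61 of the 83 members with 73 entries. In the 10 bases centred on the annotated start, the median share of C and T was 60% over member entries and 50% over all 32851 entries. The letters CTTTC stood on the transcribed strand within 15 bases before to 15 after the annotated start in 17 of the 73 member entries (23.3%), against 4.05% of all entries, and on the opposite strand in 2 (2.74%) against 3.60%. The longer CTCTTTC, which contains CTTTC, was in 6 member entries (8.22%) on the transcribed strand against 0.408% of all entries, and in 0 on the opposite strand against 0.347%. These letters and this stretch were chosen after counts of 9 motifs in 4 stretches had been seen, and the annotated start may lie some bases from the start of transcription. Among members whose mean reached 10 CPM the WT medians were -1.01 for the 16 with CTTTC in this window and -1.02 for the 41 without it, a description without a test.

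The windows below come from the RefSeq entries of the 3 members with the most negative and the 3 with the least negative WT change among those with CTTTC, and then the most and the least negative among those without it, to set the letters beside the size of the change. Each is the transcribed strand over 30 bases, 15 before and 15 after the annotated start, with CTTTC in capitals.
Rpl12: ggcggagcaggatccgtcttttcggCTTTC
Rpl27a: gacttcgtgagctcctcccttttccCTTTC
Rpl35: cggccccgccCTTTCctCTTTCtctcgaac
Rps15a: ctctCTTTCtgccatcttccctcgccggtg
Rps27: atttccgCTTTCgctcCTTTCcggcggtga
Rpl38: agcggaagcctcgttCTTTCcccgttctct
Rps27l: ccactcctccccgccgcctctatcccggaa
Rpl22: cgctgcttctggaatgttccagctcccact
Rpl12 lies at chr2:32961697-32961726 on the plus strand and Rps27l at chr9:66946071-66946100 on the plus strand, and the Rpl22 window at chr4:152324421-152324450 on the plus strand. Rpl22 and Rps27l have 2 entries each, none with CTTTC in this window, and the Rpl22 entry shown starts upstream of the gene start at 152325742 in the annotation, just before which the window of its other entry ends. Rpl35 holds CTTTC at 2 places in its window, as does Rps27. A match is a description of these letters, and its absence says only that they are not in this window.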

How the data were processed

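The authors deposited RSEM estimated counts per gene, as whole numbers, made from reads trimmed with Trimmomatic and cutadapt and aligned with STAR to the mouse transcriptome, with builds GRCm38 and mm10 named and no tool versions. No further rounding was needed. Members and gene lists were chosen with earlier results of these data known. Genes with at least 10 counts in 2 or more libraries were tested with edgeR 4.0.16 (TMM scaling, quasi-likelihood F-test, 4 groups fitted together, two-sided) in R 4.3.3, which pools the spread over groups. DESeq2 1.42.0 was an alternative, and tables and figures were made with Python 3.11.15, pandas 2.3.3 and matplotlib 3.10.9. Replicate numbers were checked as pairs, by the r across genes of deviations from the group mean. In WT, r was 0.162, 0.220 and 0.233 between libraries with the same number and -0.156 to -0.0508 between those with different numbers. The p27KO-labelled libraries had -0.118 with the same number and 0.118 with different numbers. With 2 libraries per group the deviations mirror each other, so that these values are 1 number with either sign and cannot settle the pairs. Given the WT values, a replicate block was an alternative. Others changed the scaling, the filter, the groups fitted, GC content and length, pseudogene counts and the share's denominator, or left out each library. Named members are a fixed set with known roles, paralogue pairs, X-linked members, up to 4 of the highest and 4 of the lowest changes per comparison, the 3 highest and 3 lowest levels per kilobase, and up to 2 called genes at each end of every other list. Some genes that these rules would name are not reported here.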

Additional observations from a re-analysis of the deposited data

How the results depend on the processing

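With the replicate block together with GC content and length, the median change of the members was -0.76 in WT and -0.81 with the p27KO label; the cause was not tested. In the comparison of the labels at 2 + 1 DIV, DESeq2 called 1 member, Rps27l, higher under the p27KO label than in WT. Leaving the 20 most abundant other genes and mitochondrial genes out of the denominator gave mean shares of 2.571% and 1.393% in WT and 2.57% and 1.331% with the p27KO label, and adding pseudogenes and the genes left out by symbol gave 2.759%, 1.447%, 2.744% and 1.396%. With the replicate block alone the medians were -1.03 and -1.09, and crossing the p27KO pairs, chosen after seeing the data, left 75 members lower. Leaving out 1 library at a time, where a lone library is assumed to vary like the other groups, the median ranged from -1.08 to -0.95 in WT and -1.20 to -0.99 with the p27KO label, with 68 to 76 members lower in the latter. Over these fits Rps4l ranged from -0.0616 to 3.99 with the p27KO label, and interactions from -1.50 to 0.71 for Rps12, -5.57 to 0.60 for Rpl6l and -0.91 to 0.58 for Rpl27. The Rps12 difference at 2 + 1 DIV ranged from -1.36 to 0.0033. Scaling by library totals moved the WT median of all genes from 0.03 to 0.14 and that of the members to -0.92. Over the named genes of each comparison and all alternatives, 2382 values kept direction and side of the threshold, 26 passed it newly, 31 no longer passed and 10 changed sign. Depth limits Rps4l and Rpl3l, with few counts.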
